A study of Mus musculus with 6 samples.

Results

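Immediate early and stress response genes are switched on within minutes to hours of a stimulus such as a growth factor, a cytokine, shear or damage, mostly from promoters that are already poised. ERK, p38 and JNK, the MAP kinases, act on serum response factor and its partners and on CREB, and these raise the AP-1, EGR and NR4A transcription factors first. Phosphatases, mRNA decay factors and inhibitors of NF-kB are raised in the same wave and shut the response down again. Many of these genes are also known to rise when tissue is dissociated for sorting.

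The signals of 47 such genes were compared between vascular endothelial cells (VECs), which line the blood vessels, and lymphatic endothelial cells (LECs) of the mouse small intestine. The genes were listed by name, and a probe was assigned to a gene through the RefSeq accession that the array design gives for it. Of 22911 genes named in this way, the 47 were covered by 61 probes, of which 60 were tested. Every one of the 47 genes had at least 1 tested probe, and 46 were well above background on all 6 arrays.

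Both populations were taken from the small intestine of female mice without any treatment named for the array samples, and their strain and age were not given for them. The intestine was treated with DTT and EDTA to remove the epithelium and digested with type IV collagenase, and dead cells were left out with DAPI. VECs were sorted as CD45-CD31+CD90- cells and LECs as CD45-CD31+CD90+ cells, at most 10000 cells per sample, and each population was hybridized to 3 arrays of a single color. The arrays are named VEC 2, 3 and 4 and LEC 6, 7 and 8 after the sample labels. All 6 samples thus passed through digestion and sorting, and no undigested sample is analysed here. How much of a signal was present in the tissue and how much arose during preparation was not tested, and a difference between the populations in either would give the same difference between arrays.

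The sort was checked against marker genes. By the test described below, 34.9% of all tested named genes were called higher in LECs and 32.0% lower, and the counts here stand beside these shares. All 7 lymphatic markers were higher in LECs, with a summed linear signal of 1297 to 1335 times the 75th percentile of the array on the LEC arrays and 2.71 to 3.37 on the VEC arrays. All 7 blood vascular markers were lower in LECs, with sums of 145 to 154 against 1709 to 1875. Without Emcn, which made up as much as 75.5% of the sum on an array, they were 36.2 to 47.8 against 1555 to 1695. Markers of other cell types were low beside the lymphatic sum on the LEC arrays and the blood vascular sum on the VEC arrays. The myeloid sum was 71.3 to 76.7 on the LEC arrays and 79.9 to 85.4 on the VEC arrays, but Itgam alone made up 89.9% to 93.5% of it. Without Itgam it was 7.01 to 7.55 against 5.53 to 5.96, and of 12 tested myeloid markers 8 were higher in LECs and 3 lower. The smooth muscle and pericyte sum was 21.7 to 25.8 on the LEC arrays against 29.1 to 36.5, with 3 of 8 genes lower, and 6.06 to 7.83 against 6.96 to 9.0 without Acta2. The glial and neuronal sum was 4.79 to 6.12 against 13.4 to 14.0, but 3.38 to 4.16 against 1.35 to 1.51 without Uchl1, and the erythroid sum 0.367 to 1.99 against 14.3 to 35.3. Of 10 lymphocyte markers, Cd3g, Cd8a, Ms4a1 and Nkg7 were not well above background on any array, while 4 of the 5 tested were lower in LECs. The fibroblast sum was 2.18 to 2.95 on the LEC arrays against 0.899 to 1.52, with 3 of 4 tested genes higher, the epithelial sum 7.18 to 8.46 against 4.19 to 6.78 (2.20 to 2.71 against 1.98 to 4.22 without Lgals4), and the mast cell sum 0.756 to 1.21 against 0.966 to 1.64. Of the pan-endothelial markers, 5 of 6 were lower in LECs (153 to 172 against 252 to 286). The part of other cell types in the results that follow was not tested. In such bulk samples, fewer cells of a type and less RNA per cell cannot be told apart. Whether the arrays of a group stem from different mice was not stated, and the p-values measure the spread between arrays, which may be technical.

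Short response elements close to the start site are a well known feature of this class. The 250 bases before the start site were read from the RefSeq annotation of GRCm38.p6 for the 39 members that the table held. Egr1, Egr3, Fosl1, Ier2, Klf10, Nfkbiz, Cebpd and Rgs1 had no entry. Shown here, 5' to 3' on the strand of the gene, are promoters with a perfect CArG box, the site that serum response factor is known to bind, or a perfect cAMP response element (CRE, TGACGTCA), the site of CREB and ATF factors. Capitals mark these elements. They were found in Egr2 (chr10:67537619-67537868, + strand, 1 of several annotated starts), Zfp36 (chr7:28379229-28379478, - strand) and Dusp5 (chr19:53528895-53529144, + strand), which held CArG boxes, and in Btg2 (chr1:134079156-134079405, - strand), Dusp1 (chr17:26508473-26508722, - strand) and Maff (chr15:79347270-79347519, + strand), which held CREs.
Egr2: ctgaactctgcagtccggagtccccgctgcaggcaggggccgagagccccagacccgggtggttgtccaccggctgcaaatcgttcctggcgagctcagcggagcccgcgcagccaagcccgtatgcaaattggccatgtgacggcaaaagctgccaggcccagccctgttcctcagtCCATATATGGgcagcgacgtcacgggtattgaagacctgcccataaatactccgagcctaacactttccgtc
Zfp36: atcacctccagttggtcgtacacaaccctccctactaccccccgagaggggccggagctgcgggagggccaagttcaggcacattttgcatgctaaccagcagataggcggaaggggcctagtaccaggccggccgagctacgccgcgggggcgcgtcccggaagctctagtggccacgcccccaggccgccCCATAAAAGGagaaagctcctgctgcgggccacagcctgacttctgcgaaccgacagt
Dusp5: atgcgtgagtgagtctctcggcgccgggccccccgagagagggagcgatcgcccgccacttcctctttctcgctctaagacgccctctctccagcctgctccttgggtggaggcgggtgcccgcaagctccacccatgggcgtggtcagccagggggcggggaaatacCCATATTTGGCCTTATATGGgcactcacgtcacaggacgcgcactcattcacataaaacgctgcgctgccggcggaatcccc
Btg2: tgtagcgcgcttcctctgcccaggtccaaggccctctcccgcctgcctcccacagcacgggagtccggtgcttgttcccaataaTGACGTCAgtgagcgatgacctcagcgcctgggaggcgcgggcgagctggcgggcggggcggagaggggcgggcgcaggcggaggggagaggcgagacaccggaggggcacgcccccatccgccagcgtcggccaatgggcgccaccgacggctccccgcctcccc
Dusp1: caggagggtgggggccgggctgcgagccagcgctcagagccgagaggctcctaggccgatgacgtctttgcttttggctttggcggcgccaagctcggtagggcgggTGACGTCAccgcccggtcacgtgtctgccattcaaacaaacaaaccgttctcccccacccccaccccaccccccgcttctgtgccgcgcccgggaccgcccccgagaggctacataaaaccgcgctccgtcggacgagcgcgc
Maff: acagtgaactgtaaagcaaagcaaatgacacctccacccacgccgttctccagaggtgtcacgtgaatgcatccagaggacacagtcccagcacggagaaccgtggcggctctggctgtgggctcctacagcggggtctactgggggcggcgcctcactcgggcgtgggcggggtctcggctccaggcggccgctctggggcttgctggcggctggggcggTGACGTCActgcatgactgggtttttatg

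The CArG box began 72 bases before the start in the Egr2 window and 58 bases before it in Zfp36. Dusp5 held adjacent CArG boxes that began 82 and 72 bases before the start. The CRE began 166 bases before the start in Btg2, 143 in Dusp1 and 29 in Maff. A CArG box was present in 7.69% of the 39 members and in 1.62% of all 27025 genes with such a window, and a CRE in 7.69% and 1.77%. The EGR site GCGNGGGCG was present in 28.2% of members against 5.33% of all genes, the E-box CACGTG in 30.8% against 6.86%, and the kappa B site in 20.5% against 4.46%. The AP-1 site TGANTCA was in 7.69% of members and 7.82% of all genes, and CCAAT in 48.7% and 37.5%. Both strands were searched, and no motif overlapped a different one in the members' windows, while kappa B matches that began 182 and 181 bases before the start of Fosl2 overlapped each other. The members' windows were richer in G and C, with a median of 64.4% against 52.4% over all genes, which bears on the count of every such motif, and a match is a description of the letters and not a measured binding site. Of the genes shown, Egr2, Zfp36, Dusp5, Btg2 and Dusp1 were lower in LECs, by values given below, and Maff did not pass the test.

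Signals are given as log2 of the background-subtracted intensity minus the 75th percentile of the array, so that a value of 0 is the 75th percentile. Differences are LEC minus VEC on this log2 scale with their standard error (SE), and the test was limma's moderated test over all tested probes with Benjamini-Hochberg adjustment, called at an adjusted p under 0.05. Of the 47 genes, 41 were lower in LECs, 5 were higher (Rgs1, Cebpb, Gadd45a, Dusp2 and Klf6) and 1, Maff, did not pass. Over all 14971 tested named genes, 66.9% were called, 34.9% as higher in LECs and 32.0% as lower, so a call by itself was common in this comparison. Over the 33776 tested probes, the shares were 64.0% in all, 31.2% higher and 32.8% lower.

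The direction and the size of the members' differences stood further from those of all genes. The 47 genes were chosen with earlier results of these data known, so this contrast is a description and not an independent test. The median difference of the 47 genes was -1.65, beside 0.017 over all tested named genes, and the median absolute difference was 1.65 beside 0.46. More than 2-fold lower in LECs were 35 of the 47 genes, where 13.1% of all genes were, and more than 5-fold lower were 13, where 5.19% were. Only Rgs1 of the 47 was more than 2-fold higher in LECs, where 12.0% of all genes were. In either direction, 36 members passed 2-fold and 13 passed 5-fold, beside 25.1% and 9.87% of all genes. Fosl1 entered these counts by its fitted difference, although it passed the filter through the VEC arrays only and its value is a bound. The 3 LEC and 3 VEC values did not overlap for 46 of the 47 genes, which held for 75% of all genes. Among the 41 lower genes the difference ran from -0.36 for Cebpd to -4.00 for Egr3, and the largest adjusted p among them was 0.0256, for Dusp5.

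**Figure D1:**
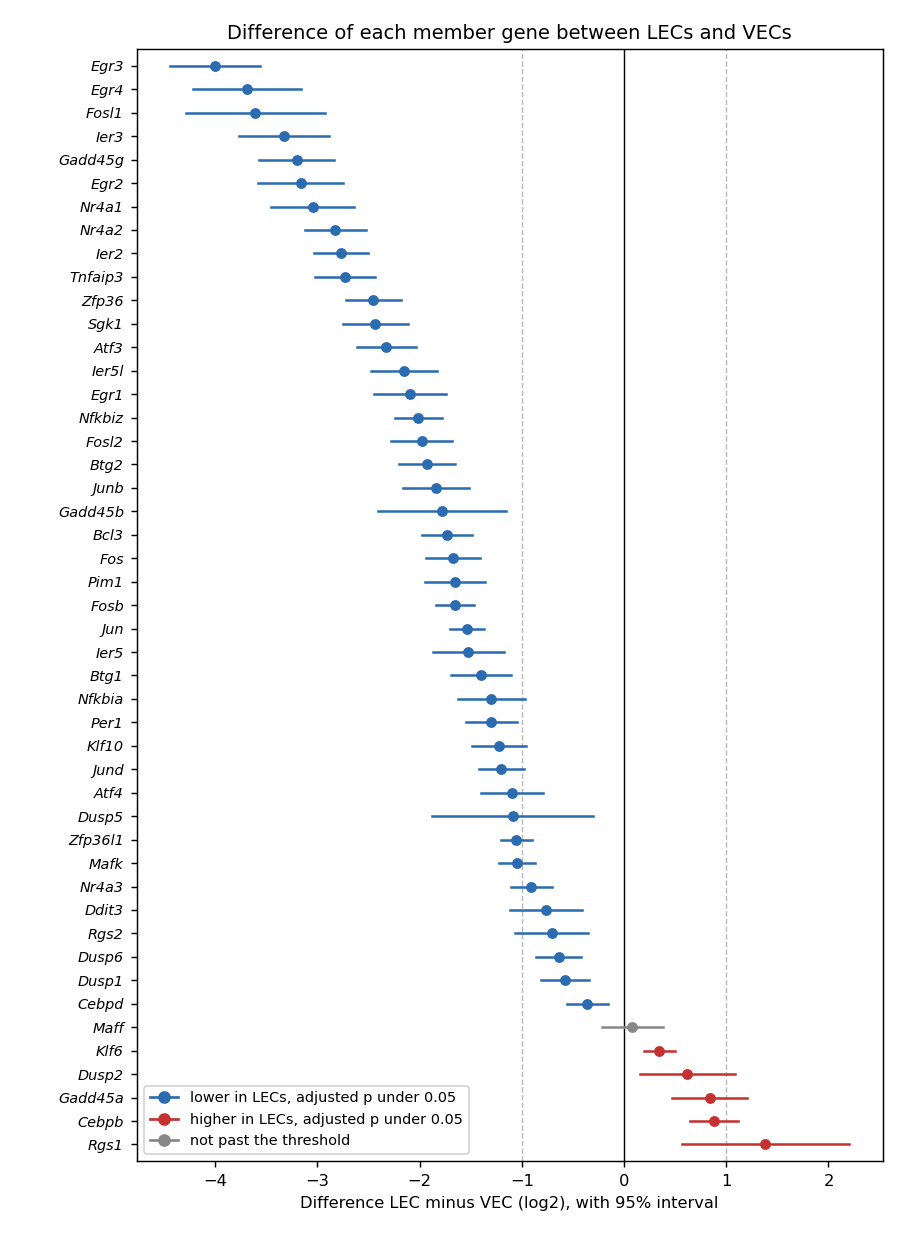
Difference between LECs and VECs of each of the 47 genes on the log2 scale (x axis), as points with 95% intervals, ordered by size; dashed lines mark 2-fold. The points of 41 genes lie left of 0 with an interval that does not reach it, those of 5 genes lie right of it, and the interval of Maff spans 0.

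The AP-1 and small MAF factors bind DNA as basic leucine zipper dimers. Of 10 genes, 9 were lower in LECs and 1 was not called, with a median difference of -1.66. Fos, the prototype immediate early gene, had signals of 8.12, 8.16 and 7.88 on VEC 2, 3 and 4 and of 6.53, 6.29 and 6.32 on LEC 6, 7 and 8. The groups stood well apart, and the difference was -1.67 (SE 0.11, adjusted p = 4.93e-05), or 3.19-fold lower in LECs. Its usual partner Jun had signals of 8.52, 8.50 and 8.38 against 6.98, 6.92 and 6.90, again without overlap, and a difference of -1.53 (SE 0.068).

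The largest difference in this group was that of Fosl1, a Fos relative that is known to be induced later than Fos. Its signals were -1.24, -1.25 and -1.72 in VECs and -4.43, -5.41 and -5.18 in LECs. Only 1 of the 3 LEC arrays measured it well above background, so the difference is a bound, at least 7.41-fold lower in LECs, with a fitted adjusted p of 9.97e-05. The fitted log2 difference of -3.61 became -1.55 with normexp background correction and its added offset of 50 intensity units, which together compress dim signals. Atf3, a stress-induced repressor, stood at 6.48, 6.47 and 6.32 in VECs and 4.30, 3.90 and 4.10 in LECs. All LEC values were below all VEC values, and the difference was -2.33 (SE 0.12, adjusted p = 1.66e-05), or 5.01-fold. Fosl2 had signals of 4.38, 4.45 and 4.03 against 2.26, 2.34 and 2.32, with a difference of -1.98 (SE 0.12, adjusted p = 3.65e-05), and its second probe gave -1.43.

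The differences of the other Jun and Fos subunits were smaller than those of Fosl1, Atf3 and Fosl2 on the probes that represent the genes. They were -1.84 for Junb, -1.65 for Fosb and -1.20 for Jund, and the second probes of these genes gave -1.97, -1.58 and -1.42. The small MAF proteins lack a transactivation domain and pair with factors such as NRF2 and BACH1. Mafk was lower in LECs, with a difference of -1.05 (SE 0.072). Maff had signals of 3.45, 3.50 and 3.13 in VECs and 3.34, 3.56 and 3.43 in LECs. The groups overlapped, and the difference was 0.08 (SE 0.12, 95% interval -0.21 to 0.38, adjusted p = 0.578). The interval leaves out a change of 2-fold in either direction, but not smaller ones.

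**Figure D2:**
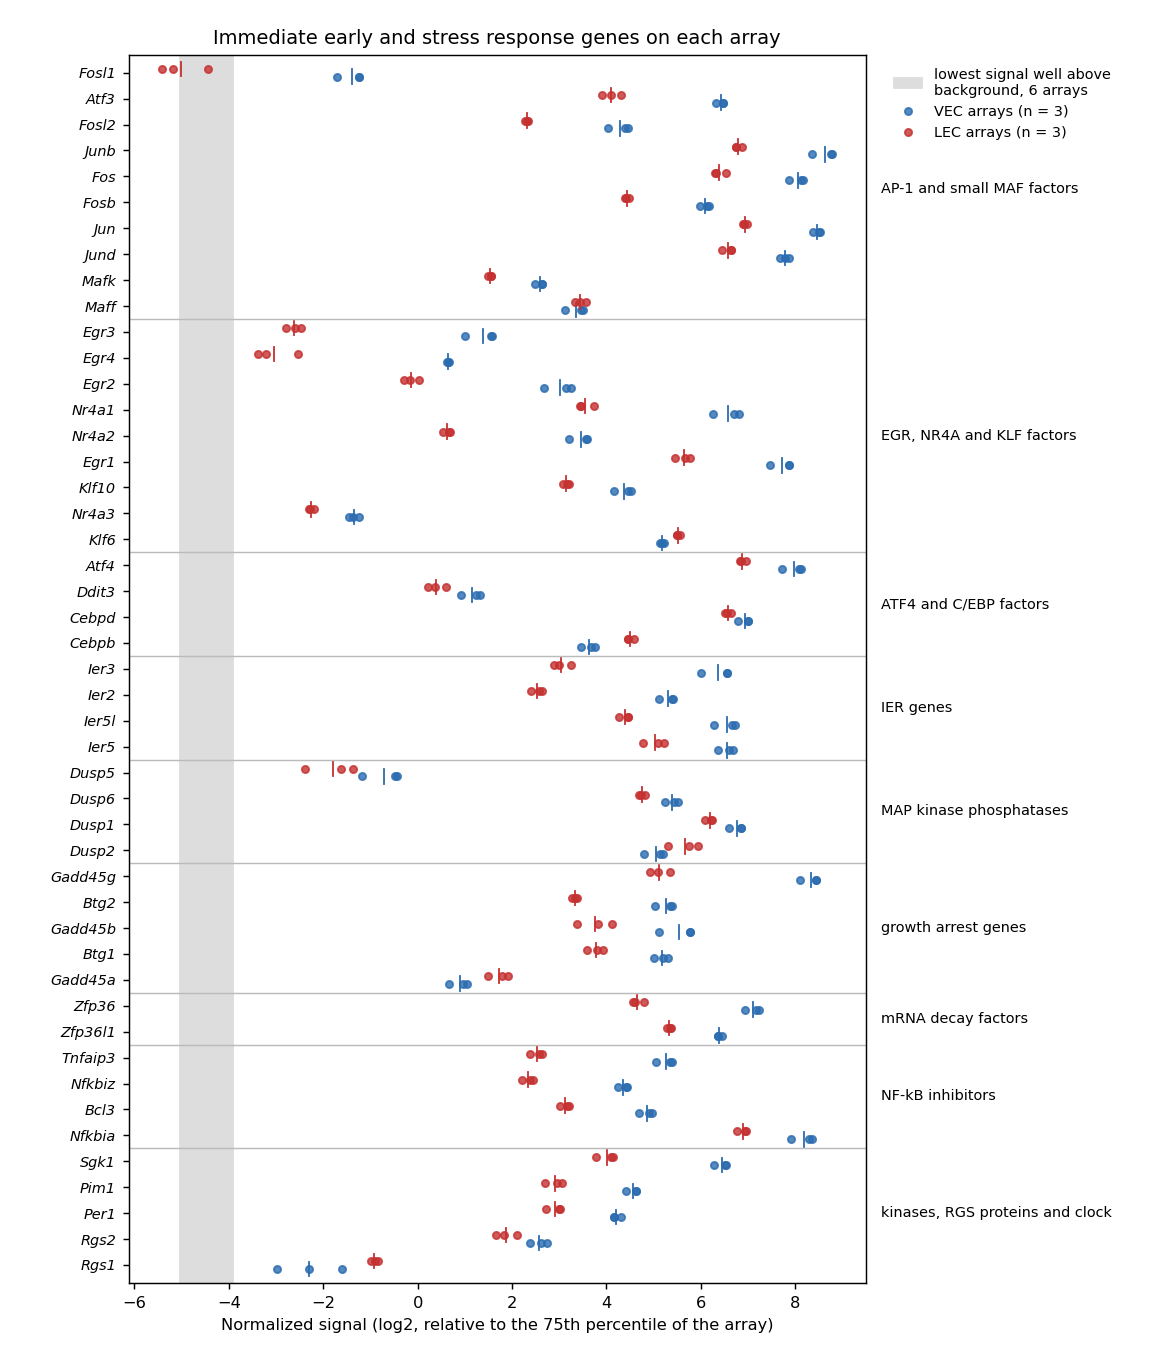
Signal of the probe that represents each gene on every array (x axis, log2 relative to the 75th percentile of the array), 3 VEC arrays in blue and 3 LEC arrays in red, with ticks at the group means and the genes grouped by role. Within each gene the red and blue points are to be compared, and they overlap in Maff only; 2 of the 3 LEC points of Fosl1 are not well above background.

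The EGR, NR4A and KLF factors held the largest differences. EGR proteins are zinc finger factors of the serum response, and NR4A proteins are orphan nuclear receptors whose activity is set mainly by how much is made. Of the 9 genes, 8 were lower in LECs and Klf6 was higher, with a median difference of -2.82. Egr3 had signals of 1.55, 1.57 and 1.01 in VECs and -2.47, -2.80 and -2.60 in LECs. The difference was -4.00 (SE 0.18, adjusted p = 1.01e-05), or 16.0-fold, the largest among the 47 genes in this fit. Over all settings described at the end it ran from -4.19 to -3.02, and that of Ier3 from -3.51 to -3.10. The ranking therefore did not hold under every setting. A second probe of Egr3, well above background on 2 of 3 LEC arrays, was at least 16.5-fold lower, and another was too dim to be tested. Egr4 stood at 0.67, 0.64 and 0.62 in VECs and at -2.55, -3.38 and -3.22 in LECs, where LEC 6 was the highest of its group. Its difference was -3.69 (SE 0.22, adjusted p = 3.03e-05), or 12.9-fold, and ran from -3.94 to -2.69 over all settings.

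Egr2, whose promoter with a CArG box is shown above, had signals of 3.25, 3.14 and 2.68 against 0.02, -0.29 and -0.15. It was 8.96-fold lower in LECs (difference -3.16, SE 0.17, adjusted p = 2.14e-05). Egr1, the family's most widely studied member, stood at 7.86, 7.86 and 7.45 in VECs and 5.77, 5.46 and 5.66 in LECs, with a difference of -2.09 (SE 0.14). In all 4 EGR genes the groups did not overlap, and in all 4 the lowest VEC array was VEC 4.

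The NR4A receptors were all lower in LECs, Nr4a1 and Nr4a2 by like amounts and Nr4a3 by less on its brighter probe. Nr4a1 had signals of 6.69, 6.80 and 6.26 in VECs and 3.73, 3.45 and 3.43 in LECs, a difference of -3.05 (SE 0.17) or 8.26-fold. Nr4a2 was lower, with a difference of -2.82 (SE 0.12), and its second probe gave -2.94. The probes of Nr4a3 gave the same direction and unlike sizes. The brighter probe gave -0.91 (SE 0.082), and a second probe, not well above background on the 3 LEC arrays, gave at least 4.42-fold lower. The same was seen for Klf10, a factor induced by TGF-beta, with -1.22 (SE 0.11) from the brighter probe and at least 6.53-fold lower from a probe that was well above background on 2 of 3 LEC arrays. With the probes of a gene averaged, the fitted differences were -2.29 for Nr4a3 and -1.98 for Klf10.

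Klf6, a zinc finger factor of endothelial injury, ran the other way. Its signals were 5.22, 5.17 and 5.13 in VECs and 5.50, 5.57 and 5.49 in LECs. The arrays of each group lay close together and did not overlap, and the difference was 0.34 (SE 0.061, adjusted p = 0.00353), or 1.27-fold. Within the slide row that held arrays of both groups, where LEC 6 was the single LEC array, its adjusted p was 0.0548.

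ATF4 and the C/EBP factors showed smaller and mixed differences. ATF4 drives the integrated stress response and is controlled mainly at translation, and DDIT3, also called CHOP, is among its targets. Atf4 had signals of 8.09, 8.13 and 7.71 in VECs and 6.95, 6.83 and 6.85 in LECs, a difference of -1.10 (SE 0.12, adjusted p = 0.000503), and its second probe gave -1.11. Ddit3 had signals of 1.24, 1.31 and 0.93 against 0.22, 0.60 and 0.36, a difference of -0.76 (SE 0.14, adjusted p = 0.00448). Both genes were thus lower in LECs without overlap.

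The C/EBP factors, activators of acute phase and inflammatory genes, parted in direction. Cebpb stood at 3.67, 3.75 and 3.45 in VECs and 4.47, 4.58 and 4.46 in LECs, and was 1.84-fold higher in LECs (difference 0.88, SE 0.096, adjusted p = 0.000434). Cebpd stood at 7.0, 7.01 and 6.80 in VECs and 6.56, 6.64 and 6.52 in LECs, and was 1.28-fold lower (difference -0.36, SE 0.083, adjusted p = 0.0102). Without scaling between arrays Cebpd no longer passed (difference -0.13, adjusted p = 0.311), and the same held with the slide row as a block (difference -0.37, adjusted p = 0.0623) and within slide row 1 (adjusted p = 0.0882). Cebpb passed under each of these.

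All 4 IER genes were lower in LECs, with a median difference of -2.46. Ier3, a stress-inducible regulator of cell survival, had signals of 6.55, 6.55 and 6.01 in VECs and 3.25, 2.89 and 2.99 in LECs. VEC 4 was the low array of its group but far above the LECs, and the difference was -3.33 (SE 0.18, adjusted p = 2.16e-05). Ier2, which gives its name to a family with Ier5 and Ier5l, stood at 5.39, 5.41 and 5.12 against 2.63, 2.41 and 2.57, a difference of -2.77 (SE 0.11, adjusted p = 6.08e-06) or 6.82-fold. Ier5l had signals of 6.65, 6.71 and 6.28 in VECs and 4.46, 4.28 and 4.45 in LECs and a difference of -2.15 (SE 0.13, adjusted p = 3.84e-05). Ier5 had the smallest difference of the group, -1.52 (SE 0.14).

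The MAP kinase phosphatases remove phosphate from ERK, p38 and JNK and are feedback targets of these kinases. Of the 4 genes, Dusp1, Dusp5 and Dusp6 were lower in LECs and Dusp2 was higher, and their median difference of -0.61 was smaller than that of any other role but the ATF4 and C/EBP factors. Dusp6, a cytoplasmic phosphatase of ERK, had signals of 5.43, 5.51 and 5.23 in VECs and 4.74, 4.69 and 4.81 in LECs, a difference of -0.64 (SE 0.09, adjusted p = 0.0013). Dusp1, whose CRE is shown above, stood at 6.86, 6.84 and 6.59 against 6.22, 6.09 and 6.24, a difference of -0.58 (SE 0.097, adjusted p = 0.00279). The values of these 2 phosphatases did not overlap between the groups. Without scaling between arrays the adjusted p of Dusp1 was 0.0559, and within slide row 1 it was 0.0519.

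Dusp5 and Dusp2, both nuclear, lost their call under 6 alternative settings each, more than any other of the 47 genes. Dusp5 had signals of -0.49, -0.43 and -1.19 in VECs and -1.37, -2.38 and -1.63 in LECs. VEC 4 and LEC 6 lay next to each other, and the difference of -1.09 had a large error (SE 0.32, adjusted p = 0.0256). With the slide row as a block it was -0.67 (adjusted p = 0.245), and without VEC 2 or without VEC 3 the adjusted p was 0.0759 and 0.0763. Dusp2 stood at 5.14, 5.20 and 4.80 in VECs and 5.95, 5.31 and 5.75 in LECs. LEC 7 was close to VEC 3, and the difference of 0.62 (SE 0.19, adjusted p = 0.03) lost its call without VEC 2, VEC 4, LEC 6 or LEC 8, at adjusted p of 0.0567, 0.0823, 0.0809 and 0.0844.

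The growth arrest genes of the BTG and GADD45 families slow the cell cycle under stress. Of these 5 genes, 4 were lower in LECs and Gadd45a was higher, with a median difference of -1.78. Gadd45g, like its paralogs an activator of stress kinase signaling, had signals of 8.43, 8.45 and 8.10 in VECs and 5.35, 4.92 and 5.10 in LECs. It was 9.21-fold lower in LECs (difference -3.20, SE 0.15, adjusted p = 1.22e-05). Gadd45b stood at 5.77, 5.76 and 5.11 against 4.11, 3.37 and 3.82, with a wider spread in both groups and a difference of -1.78 (SE 0.26, adjusted p = 0.00143). Gadd45a, the classical DNA damage gene of the family, stood at 1.05, 0.95 and 0.67 in VECs and 1.92, 1.49 and 1.78 in LECs. The 3 paralogs therefore differed in direction, and Gadd45a was 1.79-fold higher in LECs (difference 0.84, SE 0.15, adjusted p = 0.0035).

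BTG proteins recruit the CCR4-NOT deadenylase to mRNA. Btg2, whose CRE is shown above, had signals of 5.35, 5.40 and 5.02 in VECs and 3.38, 3.27 and 3.33 in LECs, and was 3.81-fold lower (difference -1.93, SE 0.11, adjusted p = 3.04e-05), with -2.20 from its second probe. Btg1 was lower, with a difference of -1.40 (SE 0.12), and its second probe gave -0.84.

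The mRNA decay factors bind AU-rich elements, which many immediate early and cytokine transcripts carry. Zfp36, also known as tristetraprolin, had signals of 7.18, 7.22 and 6.92 in VECs and 4.79, 4.56 and 4.61 in LECs. The difference was -2.45 (SE 0.11, adjusted p = 1.04e-05), or 5.47-fold lower in LECs. Its paralog Zfp36l1 stood at 6.36, 6.44 and 6.35 against 5.36, 5.29 and 5.34, a difference of -1.05 (SE 0.061, adjusted p = 3.01e-05), while a dimmer second probe gave -0.47. Neither gene overlapped between the groups.

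The regulators of NF-kB were lower in LECs in 4 of 4 genes, with a median difference of -1.87. Tnfaip3, the ubiquitin-editing enzyme A20, had signals of 5.35, 5.40 and 5.05 in VECs and 2.64, 2.39 and 2.58 in LECs. It was 6.65-fold lower (difference -2.73, SE 0.12, adjusted p = 9.41e-06). Nfkbiz and Bcl3 encode nuclear IkB proteins, which can act as cofactors as well as inhibitors. Nfkbiz stood at 4.40, 4.43 and 4.24 in VECs and 2.45, 2.20 and 2.38 in LECs, a difference of -2.01 (SE 0.095, adjusted p = 1.26e-05), with -1.32 from its second probe. Bcl3 stood at 4.97, 4.91 and 4.70 in VECs and 3.01, 3.20 and 3.16 in LECs, a difference of -1.74 (SE 0.099, adjusted p = 2.76e-05). Nfkbia, the classical cytoplasmic IkB-alpha and a direct NF-kB target, was lower, with a difference of -1.30 (SE 0.13, adjusted p = 0.000334).

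Among the inducible kinases, RGS proteins and the clock gene, 4 of 5 were lower in LECs, with a median difference of -1.30. Sgk1, a kinase induced by serum and glucocorticoids, had signals of 6.53, 6.52 and 6.27 in VECs and 4.15, 3.78 and 4.10 in LECs, and was 5.40-fold lower (difference -2.43, SE 0.13, adjusted p = 2.06e-05). Pim1, a survival kinase downstream of STAT factors, stood at 4.63, 4.63 and 4.41 against 3.06, 2.94 and 2.69, a difference of -1.66 (SE 0.12, adjusted p = 7.46e-05). Per1, a repressor of the circadian clock that CREB and glucocorticoids are known to induce, had signals of 4.15, 4.16 and 4.30 in VECs and 2.72, 2.99 and 3.01 in LECs, a difference of -1.30 (SE 0.1, adjusted p = 0.000104). It was one of 2 genes in which VEC 4 was not the lowest VEC array.

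The RGS proteins shorten G protein signals. Rgs1 had signals of -2.31, -2.98 and -1.60 in VECs and -0.99, -0.90 and -0.85 in LECs. The VEC arrays spread widely and the LEC arrays hardly at all, and Rgs1 was 2.61-fold higher in LECs (difference 1.38, SE 0.33, adjusted p = 0.0118). With normexp background correction its difference was 0.86, and its adjusted p with the row on the slide as a block was 0.0916. Rgs1 is also a gene of activated leukocytes, which the CD45- gate of both populations is meant to remove. Of the 12 tested myeloid markers, 8 were higher in LECs, Cd14, Cd68 and Itgam were lower and Csf1r was not called, and the part of such cells in the Rgs1 signal was not tested. Rgs2 ran the opposite way with a difference of -0.71 (SE 0.15, adjusted p = 0.00629), and its adjusted p with the slide row as a block was 0.0689.

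In 13 genes 2 probes were tested, and in all 13 both probes were called in the same direction. The second probes of Egr3, Klf10 and Nr4a3 were well above background on all 3 arrays in VECs only. They passed the filter through the group where they are high, so their direction was largely set by it. No share over all genes with several tested probes is given beside this count.

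The arrays of a group kept a similar order across these genes. VEC 4 gave the lowest VEC signal in 45 of the 47 genes, or 95.7%, where it did so in 44.9% of all tested named genes, with Per1 and Rgs1 as the exceptions. LEC 6 gave the highest LEC signal in 34 genes, or 72.3% against 44.0%, and LEC 7 the lowest in 35, or 74.5% against 40.5%. The median deviation from the group mean was 0.091, 0.119 and -0.189 for VEC 2, 3 and 4 and 0.091, -0.098 and 0.016 for LEC 6, 7 and 8. These deviations were small beside the median difference between the groups, which was -1.71 without VEC 4, -1.65 without LEC 6 and -1.58 without LEC 7. The order carried over to the 30 other immediate early genes, where VEC 4 was lowest in 73.3% and LEC 6 highest in 73.3%. In the 14 heat shock and oxidative stress genes VEC 4 was lowest in 7. Whether the preparation of VEC 4 and LEC 6 differed from that of the others was not tested. Arrays VEC 2, 3 and 4 and LEC 6 lay in slide row 1 and LEC 7 and 8 in row 2, all on 1 slide scanned on 1 day. Within row 1, where LEC 6 is the single LEC array, 37 of the 47 genes were lower in LECs and 3 higher, beside 24.1% and 26.4% of all named genes in the same fit.

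**Figure D3:**
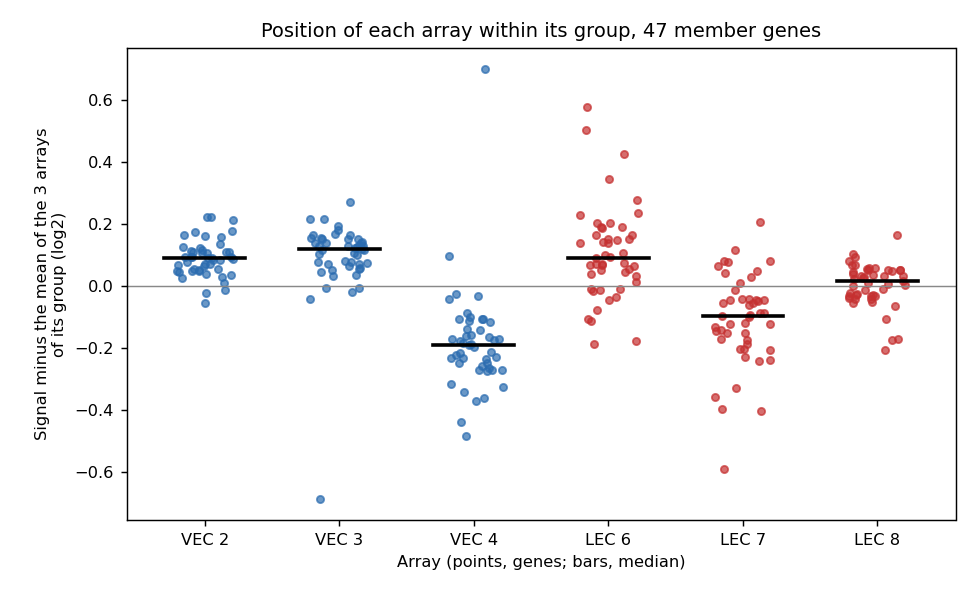
Signal of each of the 47 genes on an array minus the mean of the 3 arrays of its group (y axis, log2), 1 point per gene, with a bar at the median for each array (x axis). The points of VEC 4 lie below 0 in 45 genes, while those of VEC 2 and VEC 3 lie mostly above it.

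The surrounding pathway was described with 8 further lists, none of which shares a gene with the 47. Their counts stand beside 32.0% of all tested named genes called lower in LECs and 34.9% called higher, 66.9% in all. The share called in a list ran from 58.3% for the upstream activators to 93.3% for the other immediate early genes, and several lay near 66.9%. The activators upstream of the immediate early genes, which are SRF, its TCF and MRTF partners and CREB with its coactivators, were mixed, with 5 of 12 genes lower in LECs, 2 higher and 5 not called. Their median difference was -0.13. Values that follow a gene here are log2 differences, LEC minus VEC. The MRTF coactivator Mrtfb was lower at -3.12 and the CREB coactivator Crtc2 at -1.03, while the CREB relative Crem was higher at 0.51 and the TCF factor Elk3 at 0.38. Srf itself was lower at -0.90. The MAP kinase cascade and its brakes had 12 of 25 genes lower and 5 higher, with a median of -0.19. The ERK brake Spry4 was lower at -3.61 and the JNK gene Mapk8 at -1.11, while Mapkapk3 was higher at 3.46 and another JNK gene, Mapk9, at 1.33.

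Other partners of the bZIP class were also mixed, with 7 of 16 tested genes lower, 5 higher and a median of -0.16. Batf3 was lower at -2.37 and Bach1 at -0.82, while the large MAF gene Maf was higher at 8.44 and Cebpa at 1.71. The 30 tested genes of the list of other immediate early genes came closest to the 47. Of these, 22 were lower in LECs and 6 were higher, with a median of -1.19. Dusp10, Npas4 and Ptgs2, among the lower genes, passed the filter through the VEC arrays only, so their direction was largely set by it. Arc, best known from neurons, was lower at -5.55 and the kinase gene Plk3 at -4.12, while F3, the tissue factor gene, was higher at 0.86 and Myc at 0.85.

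The stress pathways differed less. In the unfolded protein and integrated stress response, 9 of 15 tested genes were lower and 3 higher, with a median of -0.64. Asns, the asparagine synthetase gene, was lower at -3.12 and Chac1, which breaks down glutathione, at -2.01. Trib3, the pseudokinase gene downstream of ATF4 and CHOP, was higher at 1.78 and Phgdh, the first enzyme of serine synthesis, at 1.56. The genes of this response thus lay on both sides of 0. Of 14 heat shock and oxidative stress genes, 6 were lower, 3 higher and 5 not called, with a median of -0.16. The cochaperone gene Dnajb1 was lower at -1.29 and the metallothionein Mt2 at -0.76, while Mt1 was higher at 0.65 and Hspa1b at 0.58. Hspa1a, whose sequence is nearly identical to that of Hspa1b so that their probes may share signal, had a difference of -0.28 and was not called.

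Of the 17 tested NF-kB subunits and regulators, 11 were lower in LECs and 3 higher, with a median of -0.43. The nuclear IkB gene Nfkbid was lower at -4.79 and the subunit gene Rel at -2.17. Ikbke, an IkB kinase, was at least 8.66-fold higher and the deubiquitinase gene Cyld was higher at 1.31. Of 14 glucocorticoid and circadian genes, 8 were lower and 1 was higher, with a median of -0.52. Ciart, a clock repressor, was at least 5.49-fold lower and Nr1d1 was lower at -1.78, while Nr3c1, the glucocorticoid receptor gene, was higher at 0.31. The glucocorticoid targets Tsc22d3 and Fkbp5 had differences of -0.69 and -0.02, of which that of Fkbp5 was not called. Ikbke passed the filter through the LEC arrays only and Ciart through the VEC arrays only, so their direction was largely set by it.

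**Figure D4:**
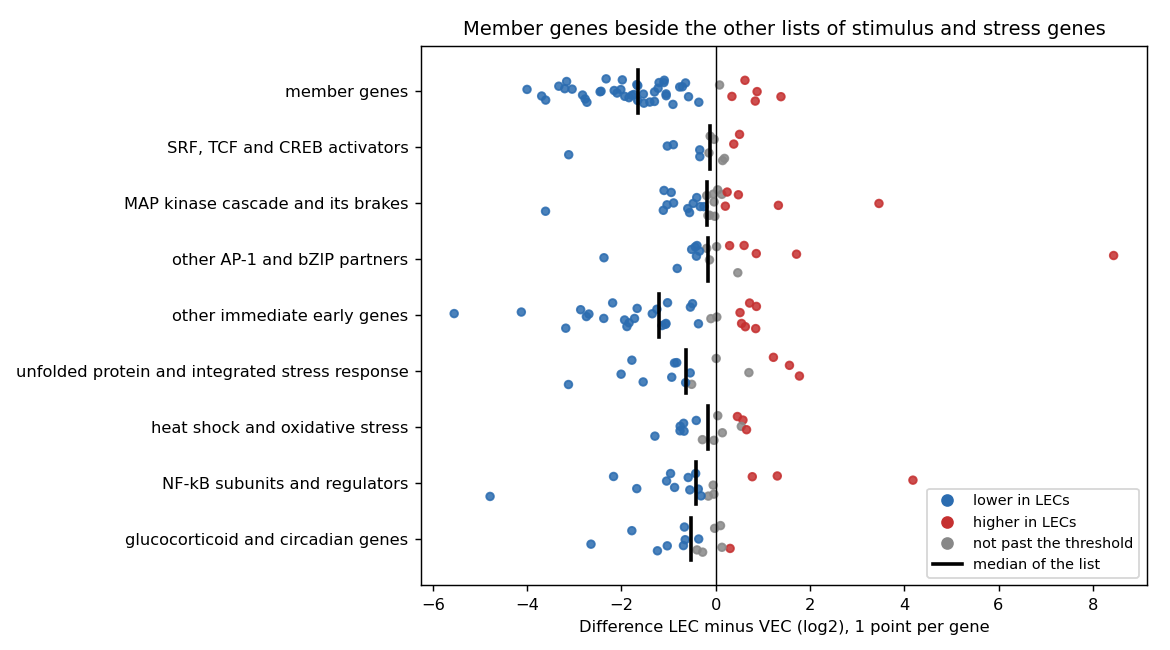
Difference between LECs and VECs of each tested gene (x axis, log2), 1 point per gene, for the 47 genes (top) and 8 lists of related genes, with genes lower in LECs in blue, higher in red, not called in gray, and a bar at the median of each list. The medians of the 47 genes and of the other immediate early genes lie at -1.65 and -1.19, those of the other lists between -0.64 and -0.13.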

How the data were processed

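The authors deposited, per the file headers, the background-subtracted intensity of every spot from Agilent Feature Extraction 12.0.3.1, not scaled between arrays, and a table of log2 values, which differed from the log2 intensity by a single constant on each array (at least 99.9% of probes within 0.01; array medians -3.19 to -3.13) and served as an alternative. Outlier spots (97 to 122 per array) were set missing, none was saturated, spots of a probe were averaged, and the 75th percentile was subtracted from log2 values. It was 333 to 375 intensity units on VEC and 381 to 441 on LEC arrays, and the lowest signal well above background 12.1 to 25.1. Probes well above background on all 3 arrays of a group, 33776 of 56605, were tested with limma 3.58.1 in R 4.3.3 (two-sided, Benjamini-Hochberg, adjusted p under 0.05), after the fit was tested on simulated data. The precision is limited by 3 arrays per group.

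Probes were named by RefSeq accession (GRCm38.p6), 32994 in all. Of several tested probes, the brightest on average stood for the gene. A dim group not well above background on all 3 arrays gave a bound, against the higher of its signal and the lowest signal well above background. Full values were given per role for up to 3 called genes per direction with the largest difference, for probes that disagreed and for genes not called, and in other lists for up to 2 per direction. Values beyond this rule (Fos, Jun, Egr1, Nr4a1, Srf, Hspa1a, Tsc22d3, Fkbp5 and the like) were chosen with their values seen. The members and lists were chosen with earlier results of these data known. VECs are named in the description of the LEC samples, but the grouping follows titles and source names.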

Additional observations from a re-analysis of the deposited data

How the results depend on the processing

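The 47 differences were recomputed under up to 20 settings each, 939 values in all, of which 914 kept their direction and their side of the threshold, 22 kept the direction without passing it, and 3 reversed. The reversed values were those of Maff, which did not pass under any of these settings, at -0.025 with the slide row as a block, -0.025 within slide row 1 and -0.033 without VEC 4 (up to 0.15 with another array left out). Lost calls concerned Klf6, Cebpd, Dusp1, Dusp2, Dusp5, Rgs1 and Rgs2, and the cause was not tested. The members' median ran from -1.43 (no scaling between arrays) to -1.71 (without VEC 4), and was -1.49 within slide row 1. Without scaling, the median over all named genes moved from 0.017 to 0.244, the probes lower in LECs fell to 6916, 65.1% of called probes were higher against 48.8%, and 39 members were lower. Members higher in LECs numbered 3 within slide row 1 and 3 at an adjusted p under 0.01, where 37 and 39 were lower. With 1 array left out, 4 to 5 members were higher and 40 to 41 lower, with 9308 to 10452 probes higher and 9534 to 10895 lower over the array. The methods' one-way test gave 4 members higher and 41 lower unadjusted, and 4 and 40 after Benjamini-Hochberg adjustment. The row-1 fit assumes that its lone LEC array varies like the VEC arrays, and normexp used median signals, since mean signals were not among the columns used here. The groups share no replicate numbers (VEC 2 to 4 and LEC 6 to 8), and the labels do not say whether any arrays came from the same preparation. No paired analysis was run, so a pairing, if there was one, was not taken into account.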
